A study of Mus musculus with 18 samples.

Results

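Cells sorted on day 18 of reprogramming while they still expressed their cassette were compared with established induced pluripotent stem cell (iPSC) clones. The comparison used 6 of the 18 arrays of the series, chosen by their labels: 2 arrays of day 18 mCherry+ cells and 4 arrays of iPSC clones. The day 18 cells came from mouse embryonic fibroblasts that carried the rtTA transactivator in the ROSA26 locus and a Nanog-GFP reporter. They had received a piggyBac transposon with a polycistronic cassette of Pou5f1 (OCT4), Klf4, Myc and Sox2 linked to mCherry, were kept in ES cell medium with doxycycline at 1 µg/mL, and were collected by sorting for mCherry. The high-KLF4 cassette (OK+9MS) carries the long Klf4 cDNA and the low-KLF4 cassette (OKMS) carries the short one, and day 18 had 1 array for each. The clones were A10 and H10 from high-KLF4 and A7 and A9 from low-KLF4, made with the same inducible transposons, and each clone array is 1 clone. They were grown in ES cell medium, and the sources used here give neither a sort nor a doxycycline state for them. Stage, cassette expression, sorting and clonal derivation therefore cannot be told apart in this comparison.

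Fibroblasts on the way to pluripotency lose mesenchymal genes, gain epithelial genes in a mesenchymal-to-epithelial transition (MET), and later express their own pluripotency network, in which Nanog, Esrrb, Sall4 and their partners act on each other's promoters and enhancers. Fully reprogrammed cells keep this network without the cassette. Pluripotent stem cells also express a group of germline genes, many with CpG-rich promoters, that are silent in fibroblasts. The question here was which genes of the pluripotent state were not yet at clone level on day 18, and which genes of the transient epithelial phase were still high.

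Values are linear signals of Affymetrix Mouse Gene 1.0 ST arrays, given for high-KLF4 and then low-KLF4. A difference is day 18 minus clones on the log2 scale with its standard error, from a limma fit of the 6 arrays with the cassette as a block, and a probe is called when its Benjamini-Hochberg adjusted p over 23410 probes with a gene symbol is below 0.05. With 1 day 18 array per cassette, each cassette's own difference is also given, and a gene is placed by whether it lies 2-fold or more from its clones in both cassettes, in 1 of them (split), or within 2-fold in both. The files hold no detection call, so no gene can be called silent from its signal alone. Clones of the same cassette correlated at 0.997 (high-KLF4) and 0.997 (low-KLF4) over all probes, and the 2 day 18 arrays at 0.989, with 0.961% of probes 2-fold or more apart. The labels do not say whether the arrays come from separate cultures, so p-values measure the spread between these samples only. In bulk RNA, fewer cells that express a gene and less RNA per cell cannot be told apart.

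Day 18 cells and clones differed over much of the array, mostly by small amounts. Of the tested probes, 4711 (20.1%) were called higher on day 18 and 5092 (21.8%) lower, and 80.9% of these calls were of differences under 2-fold. A smaller set lay 2-fold or more away from the clones in both cassettes, with 570 probes (2.43%) higher and 726 (3.10%) lower, while 20644 (88.2%) lay within 2-fold in both. No probe that was 2-fold higher or lower in high-KLF4 was 2-fold changed the opposite way in low-KLF4. Tested by cassette in a fit of all 18 arrays, high-KLF4 day 18 cells had 1323 probes (5.65%) called higher and 1971 (8.42%) lower than their clones. Low-KLF4 day 18 cells had 1880 (8.03%) higher and 2795 (11.9%) lower. These counts were smaller with 1 clone of the cassette left out, at 629 higher and 1102 lower without A10 and 577 and 819 without H10, and at 945 and 1731 without A7 and 541 and 1355 without A9. The fit of 18 arrays also called fewer probes over both cassettes, 3103 higher and 3997 lower. The medians of 26 gene lists are plotted by cassette.

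**Figure D1:**
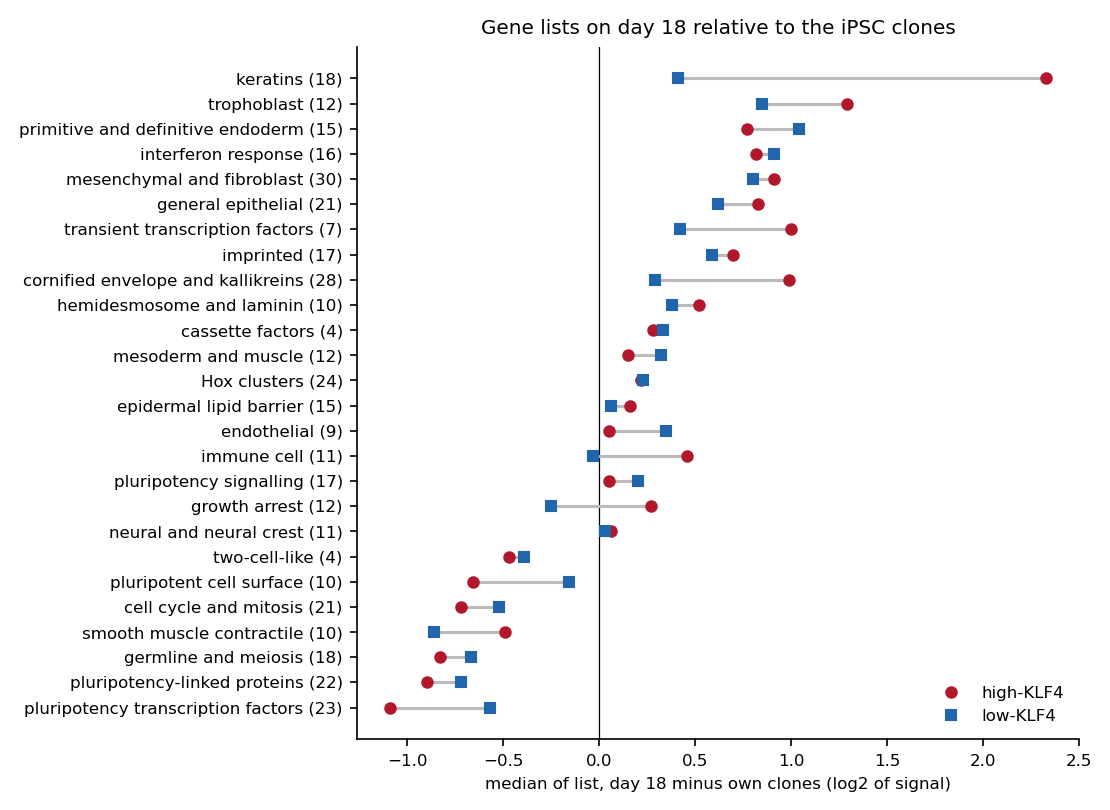
Median difference of each gene list, day 18 minus the clones of the same cassette (log2, horizontal axis), for high-KLF4 and low-KLF4, with the number of genes measured beside each list name. The germline list (-0.83 in high-KLF4, -0.67 in low-KLF4) and the lists of pluripotency transcription factors, pluripotency-linked proteins and pluripotent cell surface genes lie below 0 in both cassettes, and the keratins have the widest gap between the cassettes (2.33 and 0.41).

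Most pluripotency factors were below clone level on day 18. Of 23 measured pluripotency transcription factors, 19 were called lower than in the clones, 1 (Otx2) was called higher and 3 were not called, where 21.8% and 20.1% of all tested probes were called lower and higher. Their median difference was -0.82, against 0.04 over all tested probes. Only Nanog, Mycn and Tcea3 lay 2-fold or more below the clones in both cassettes, 9 factors were split and 10 lay within 2-fold in both. Nanog, a homeodomain factor at the centre of the network, had a signal of 2381 (high-KLF4) and 2557 (low-KLF4) on day 18, against 6318 and 6144 in the high-KLF4 clones and 5975 and 6755 in the low-KLF4 clones. The 2 day 18 values were close to each other and under every clone (log2 difference -1.35 ± 0.08, adjusted p = 0.000117), while day 2 read 94.2 and 79.5. Mycn, a MYC family factor of pluripotent and progenitor cells, measured 1065 (high-KLF4) and 898 (low-KLF4) on day 18, against 2743 and 2625 in the high-KLF4 clones and 2689 and 3123 in the low-KLF4 clones (log2 difference -1.51 ± 0.11, adjusted p = 0.000198). Tcea3, a transcription elongation factor of mouse ES cells, had 489 (high-KLF4) and 576 (low-KLF4) on day 18, against 1651 and 1767 in the high-KLF4 clones and 1627.5 and 1796 in the low-KLF4 clones (log2 difference -1.69 ± 0.09, adjusted p = 9.09e-05). For all 3 genes the day 18 and clone arrays did not overlap, which their choice at 2-fold in both cassettes makes likely.

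Several naive-state factors were 2-fold lower in high-KLF4 only. Esrrb, an orphan nuclear receptor that binds many of the same sites as Nanog, had 919.8 (high-KLF4) and 1439.5 (low-KLF4) on day 18, against 1908 and 2234 in the high-KLF4 clones and 1853 and 2146 in the low-KLF4 clones, with differences of -1.17 (high-KLF4) and -0.47 (low-KLF4). Nr5a2, a nuclear receptor that acts on the Pou5f1 promoter, measured 205 and 275 on day 18, against 457 to 629 in the clones (-1.54 and -0.91). Utf1, a chromatin factor of undifferentiated ES cells, had 3913 and 6099 on day 18, against 8798 to 9029 in the clones (-1.19 and -0.55). Klf5, Nr0b1, Zscan10, Mybl2 and Prdm14 were split in the same direction, all called lower over both cassettes, Prdm14 not without the high-KLF4 day 18 array (adjusted p = 0.0695). The high-KLF4 difference was the lower in 19 of 23 factors, where it was the higher for 45.2% of all tested probes. However, no factor was called in the test of the difference between cassettes, which rests on 1 day 18 array each.

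Other factors were close to their level in the clones. Sall4, a zinc finger factor needed for ES cell self-renewal, had 2869 (high-KLF4) and 3081 (low-KLF4) on day 18, against 3804 and 3403 in the high-KLF4 clones and 4052 and 3623 in the low-KLF4 clones, a small difference (log2 difference -0.32 ± 0.09, adjusted p = 0.0242) whose call was lost without any 1 of 4 of the 6 arrays (adjusted p up to 0.0787). Tfcp2l1, a naive-state factor downstream of LIF, had 1546 and 2027 on day 18, against 2055 to 2335 in the clones and Tbx3, a T-box factor of the same state, 684 and 949 on day 18, against 665 to 1057 in the clones, and neither was called (adjusted p = 0.0633 and 0.649). Foxd3, the third factor that was not called, had 153 and 270.4 on day 18, against 259 to 408 in the clones (adjusted p = 0.071). Among the 21 factors that the clones of both cassettes held 2-fold or more above day 2, 14 were also 2-fold above day 2 on day 18 in both cassettes, and 5 (Prdm14, Gbx2, Foxd3, Mybl2 and Zfp57) were still within 2-fold of day 2. On the log2 scale, the median factor had covered 70.6% (high-KLF4) and 70.4% (low-KLF4) of the distance between day 2 and its clones, against 40.7% and 47.7% for the 1229 tested probes that meet the same condition.

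Zfp42 and Otx2 set these cells apart from mESCs or from the clones. Zfp42 (REX1), a marker of naive ES cells, had 131 (high-KLF4) and 129 (low-KLF4) on day 18, against 223 and 286 in the high-KLF4 clones and 174 and 369.8 in the low-KLF4 clones (log2 difference -0.96 ± 0.28, adjusted p = 0.0357), while the mESC arrays read 2386 and 2237, so the clones themselves were far below mESCs for this gene. Its call was lost without any 1 of 4 arrays (adjusted p up to 0.136). Otx2, a homeodomain factor that rises as ES cells leave the naive state, was the only factor of the list that was higher on day 18, with 3007 (high-KLF4) and 3061 (low-KLF4) on day 18, against 775 and 592 in the high-KLF4 clones and 782.5 and 786 in the low-KLF4 clones (log2 difference 2.06 ± 0.12, adjusted p = 0.000115). Its day 8 arrays had 86.9 and 84.8 (high-KLF4) and 66.3 and 59.3 (low-KLF4), and the mESCs had 628 and 533, so day 18 held its highest values.

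**Figure D2:**
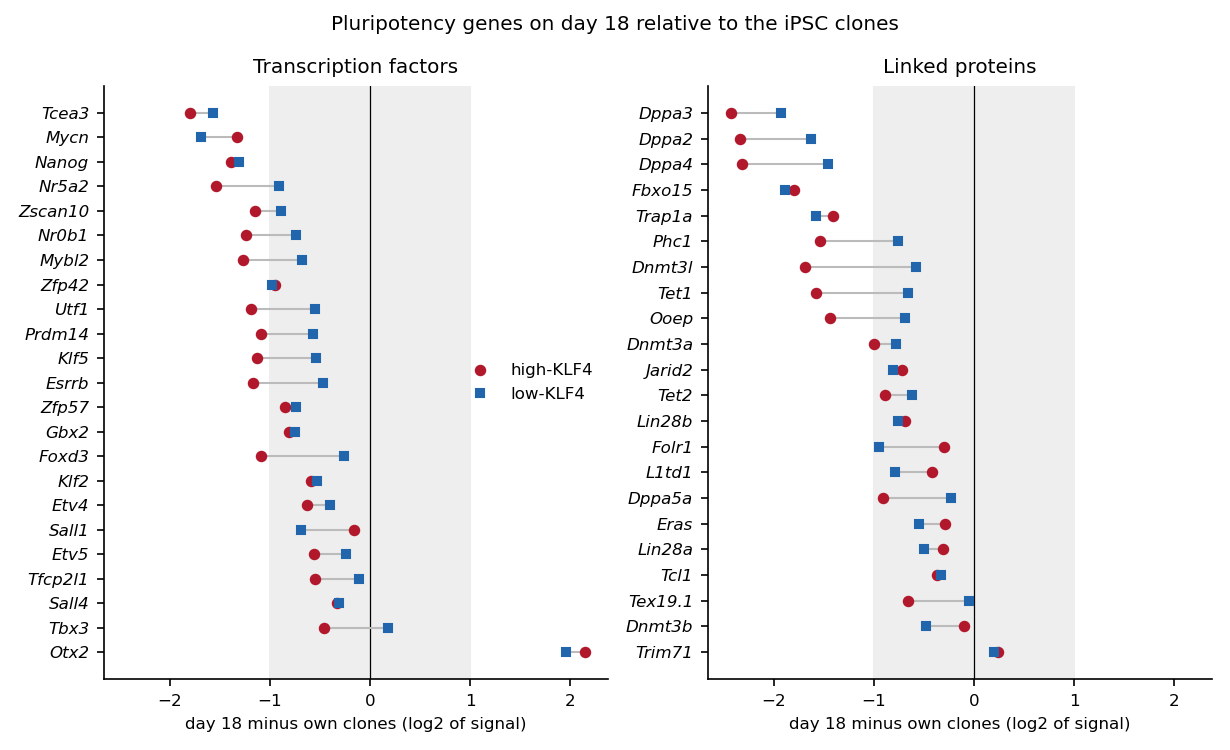
Day 18 minus clones of the same cassette (log2, horizontal axis) for each measured pluripotency transcription factor and pluripotency-linked protein, with a point for high-KLF4 and a point for low-KLF4. The shaded band marks differences within 2-fold, Otx2 lies above it in both cassettes, and Nanog, Mycn, Tcea3, Dppa2, Dppa3, Dppa4, Fbxo15 and Trap1a lie below it in both.

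Proteins linked to the pluripotent state followed the same division. Of 22 measured genes, 18 were called lower on day 18, none was called higher and 4 were not called. Over all tested probes 21.8% were called lower and 20.1% higher. The median of the list was -0.76. The 5 genes 2-fold or more below the clones in both cassettes included the 3 developmental pluripotency associated genes Dppa2, Dppa3 and Dppa4, late markers of reprogramming. Dppa2, whose protein acts with DPPA4 at the promoters of germline and early embryonic genes, had 869 (high-KLF4) and 1511 (low-KLF4) on day 18, against 4747 and 4082 in the high-KLF4 clones and 4907 and 4459 in the low-KLF4 clones (log2 difference -1.99 ± 0.17, adjusted p = 0.0003). Dppa4 measured 187 (high-KLF4) and 329.7 (low-KLF4) on day 18, against 907 and 960.4 in the high-KLF4 clones and 901 and 916 in the low-KLF4 clones (log2 difference -1.89 ± 0.18, adjusted p = 0.000471). Dppa3 (STELLA), which protects the maternal genome from demethylation in the zygote, had 123 (high-KLF4) and 176 (low-KLF4) on day 18, against 707 and 621 in the high-KLF4 clones and 610.0 and 730.2 in the low-KLF4 clones (log2 difference -2.18 ± 0.14, adjusted p = 0.000148). The mESC arrays read 134 and 147 for Dppa3, at the level of the day 18 cells, so this difference holds against these clones and not against mESCs. A second probe of each of the 3 genes gave differences of -2.43, -2.74 and -2.52.

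Fbxo15, an F-box protein gene whose promoter was among the earliest used to select iPSCs, had 463 (high-KLF4) and 428 (low-KLF4) on day 18, against 1628 and 1586 in the high-KLF4 clones and 1489.8 and 1693 in the low-KLF4 clones (log2 difference -1.84 ± 0.08, adjusted p = 5.51e-05). Trap1a, an X-linked tumour antigen gene, had 212 and 185 on day 18, against 514 to 589.9 in the clones (log2 difference -1.49 ± 0.09, adjusted p = 0.000128). The enzymes of DNA methylation were uneven. Tet1, which oxidises methylcytosine, had 2021 and 3467 on day 18, against 5343 to 6161.5 in the clones (-1.58 in high-KLF4 and -0.66 in low-KLF4). Another Tet1 probe was 2-fold lower in both cassettes (-2.07 and -1.05), and a further one was split (-1.62 and -0.78). Dnmt3l, the cofactor of the de novo methyltransferases, had 815.5 and 1561 on day 18, against 2250.5 to 2655 in the clones (-1.69 and -0.58). Dnmt3b, a de novo methyltransferase, was not called, with 1308 and 1211 on day 18, against 1329.6 to 1839.9 in the clones (adjusted p = 0.102). Trim71, an RNA-binding protein that is a target of let-7, was also at clone level, with 1158 and 1161 on day 18, against 914 to 1055 in the clones (adjusted p = 0.0851), and Lin28a, which blocks let-7 processing, was within 2-fold (-0.41, called lower, but not without the low-KLF4 day 18 array, adjusted p = 0.0738).

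Genes of pluripotency signalling were called in both directions. Of 17 genes, 5 were called higher and 6 lower, where 20.1% and 21.8% of all tested probes were, so the counts alone do not set the list apart. Among the TGF-beta family ligands, Gdf3 was 2-fold lower in both cassettes, with 623 (high-KLF4) and 786 (low-KLF4) on day 18, against 1598 and 1567 in the high-KLF4 clones and 1671 and 1724.5 in the low-KLF4 clones (log2 difference -1.23 ± 0.08, adjusted p = 0.000149). Lefty1, a NODAL inhibitor, had 1936 and 1168.5 on day 18, against 2875 to 3228 in the clones (log2 difference -1.01 ± 0.15, adjusted p = 0.00275). Nodal itself had 749 and 966 on day 18, against 1126 to 1491 in the clones (log2 difference -0.65 ± 0.09, adjusted p = 0.00221). Tdgf1, the NODAL co-receptor also called CRIPTO, had 3091 and 5310.2 on day 18, against 8633.5 to 9068 in the clones, and Fgf4, the FGF of ES cells, had 1084 and 2008.5 on day 18, against 2921 to 3435 in the clones, both called lower (-1.12 and -1.05). The BMP targets Id1 and Id3, inhibitors of helix-loop-helix factors, were the 2 genes 2-fold higher in both cassettes. Id1 had 1487 (high-KLF4) and 860.4 (low-KLF4) on day 18, against 254 and 249 in the high-KLF4 clones and 297 and 284 in the low-KLF4 clones (log2 difference 2.07 ± 0.21, adjusted p = 0.000546). Id3 had 969.9 and 855 on day 18, against 299 to 339 in the clones (log2 difference 1.55 ± 0.09, adjusted p = 0.000119). Both genes were already above the clones on day 2, Id1 at 2258 and 1165 and Id3 at 616 and 562. Il6st (gp130), a LIF co-receptor, was called higher (0.99), while Lifr, its partner, and Socs3, a target of the pathway, were not called (adjusted p = 0.897 and 0.205).

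At the cell surface, Pecam1, an adhesion protein of late reprogramming and of ES cells, had 176 (high-KLF4) and 257 (low-KLF4) on day 18, against 754 and 757 in the high-KLF4 clones and 618 and 748 in the low-KLF4 clones (log2 difference -1.75 ± 0.17, adjusted p = 0.00045). Cdh1 (E-cadherin), which appears earlier in the MET, was at clone level, with 3838 and 3476.5 on day 18, against 3433 to 4195 in the clones (log2 difference -0.01 ± 0.09, adjusted p = 0.959), and so was Kit, the stem cell factor receptor (adjusted p = 0.171). Podxl, a sialomucin of the cell surface, went the other way, with 4380.0 (high-KLF4) and 3662 (low-KLF4) on day 18, against 693 and 801 in the high-KLF4 clones and 760.3 and 836 in the low-KLF4 clones (log2 difference 2.38 ± 0.11, adjusted p = 6.57e-05). Its day 2 arrays were also high, at 3200.5 and 2035. The remaining genes of this list of 10 lay between -0.91 (Fut9) and 0.06 (Cd9).

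Probes for the 4 cassette factors can also read cassette transcript, and the share of each source was not tested. Pou5f1 had 5264.5 (high-KLF4) and 4752 (low-KLF4) on day 18, against 4449.5 and 4339 in the high-KLF4 clones and 4345 and 4388 in the low-KLF4 clones and was not called (log2 difference 0.19 ± 0.07, adjusted p = 0.073). Klf4 had 831 and 978 on day 18, against 518 to 869 in the clones and was not called (adjusted p = 0.141). Myc was higher in both cassettes, with 2393 (high-KLF4) and 1835 (low-KLF4) on day 18, against 817 and 587 in the high-KLF4 clones and 834 and 759.5 in the low-KLF4 clones (log2 difference 1.50 ± 0.18, adjusted p = 0.00102). Sox2, although part of the cassette, was lower, with 1719.9 (high-KLF4) and 2813 (low-KLF4) on day 18, against 4755 and 5265 in the high-KLF4 clones and 4368 and 4931 in the low-KLF4 clones (log2 difference -1.13 ± 0.18, adjusted p = 0.00346). On day 2, with the cassette on, Sox2 read 104 and 129. The same arrays read 8494 and 9348 for Pou5f1, 2872 and 3416 for Myc and 820 and 1027 for Klf4. Keratinocytes read 73.6 and 64.3 for Pou5f1, and 1669 and 2435 for Myc. Whether the day 18 signals of Pou5f1 and Myc measure the endogenous genes alone was not tested.

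Germline and meiotic genes were furthest from the clones among the pluripotency-related lists in the distance covered since day 2. Of 18 measured genes, 14 were called lower on day 18 and none higher, where 21.8% and 20.1% of all tested probes were. In both cassettes 6 (Ddx4, Tdrd12, Mael, Sycp3, Sycp1 and Dazl) lay 2-fold or more below, where 3.10% of all tested probes did. For the 8 genes that the clones held 2-fold above day 2, the median had covered 21.6% (high-KLF4) and 29.5% (low-KLF4) of the distance, and 5 of them (Dazl, Ddx4, Sycp1, Hormad1 and Rpl10l) were still within 2-fold of day 2 in both cassettes. Ddx4 (mouse VASA homologue), an RNA helicase of germ cells, had 50.4 (high-KLF4) and 56.6 (low-KLF4) on day 18, against 354 and 428 in the high-KLF4 clones and 392 and 396 in the low-KLF4 clones (log2 difference -2.87 ± 0.10, adjusted p = 2.82e-05). Its day 2 arrays read 43.4 and 43.0, and keratinocytes 42.9 and 41.6. Tdrd12, a tudor protein of the piRNA pathway, had 172 (high-KLF4) and 299.5 (low-KLF4) on day 18, against 2031 and 1960.0 in the high-KLF4 clones and 1847 and 2196 in the low-KLF4 clones (log2 difference -3.14 ± 0.18, adjusted p = 0.00011), the largest difference of the list.

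Mael, a piRNA pathway protein that helps to silence transposons, had 86.8 (high-KLF4) and 183.5 (low-KLF4) on day 18, against 789.8 and 823 in the high-KLF4 clones and 751 and 922 in the low-KLF4 clones (log2 difference -2.70 ± 0.23, adjusted p = 0.000299). Sycp3, a component of the axis of meiotic chromosomes, had 57.0 (high-KLF4) and 67.1 (low-KLF4) on day 18, against 489 and 449 in the high-KLF4 clones and 317 and 636 in the low-KLF4 clones (log2 difference -2.89 ± 0.26, adjusted p = 0.000368). Sycp1, of the same synaptonemal complex, had 26.0 and 28.8 on day 18, against 63.9 to 112 in the clones (log2 difference -1.71 ± 0.16, adjusted p = 0.000413). Dazl, an RNA-binding protein of germ cells, had 47.1 and 46.7 on day 18, against 97.5 to 135 in the clones (log2 difference -1.30 ± 0.16, adjusted p = 0.00125). On both day 18 arrays each of the 6 genes was below every clone, which the 2-fold rule that picked them makes likely. Genes outside the list were chosen after their low values were seen, so they add no separate support. Rnf17, a tudor protein of spermatids, had 74.4 and 93.5 on day 18, against 409.5 to 556 in the clones (log2 difference -2.51 ± 0.13, adjusted p = 8.34e-05), Meioc, a regulator of meiotic prophase, 37.6 and 53.7 on day 18, against 320.1 to 436 in the clones (log2 difference -3.03 ± 0.19, adjusted p = 0.000128). Hsf2bp, a meiotic recombination factor, had 156 and 229 on day 18, against 1209.9 to 1740.2 in the clones (log2 difference -2.93 ± 0.18, adjusted p = 0.000136). The 4 genes that were not called (Piwil2, Asz1, Tex101 and Brdt) were under 2-fold above day 2 in the clones of at least 1 cassette.

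The promoters of 4 of these genes are shown because many germline genes carry dense CpG dinucleotides and E-box or E2F-type motifs near their start sites. Each sequence is a RefSeq window of 300 bases on GRCm38.p6, 250 before to 50 after the start of the gene, 5′ to 3′ on the gene's strand, with every CG in capitals.
Ddx4 (chr13:112652261-112652560, - strand): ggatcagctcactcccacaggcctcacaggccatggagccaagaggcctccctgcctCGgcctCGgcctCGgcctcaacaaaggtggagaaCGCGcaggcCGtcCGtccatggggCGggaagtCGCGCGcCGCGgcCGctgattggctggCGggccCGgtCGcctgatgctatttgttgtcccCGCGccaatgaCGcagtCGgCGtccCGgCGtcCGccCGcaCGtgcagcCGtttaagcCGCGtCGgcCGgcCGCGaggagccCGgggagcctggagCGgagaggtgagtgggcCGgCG
Mael (chr1:166238695-166238994, - strand): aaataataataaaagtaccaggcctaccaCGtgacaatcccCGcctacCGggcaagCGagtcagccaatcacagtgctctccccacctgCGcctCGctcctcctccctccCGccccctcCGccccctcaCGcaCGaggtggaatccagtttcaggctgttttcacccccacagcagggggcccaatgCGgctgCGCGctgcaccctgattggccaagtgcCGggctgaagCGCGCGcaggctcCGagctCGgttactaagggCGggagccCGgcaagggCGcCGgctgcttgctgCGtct
Sycp3 (chr10:88459337-88459636, + strand): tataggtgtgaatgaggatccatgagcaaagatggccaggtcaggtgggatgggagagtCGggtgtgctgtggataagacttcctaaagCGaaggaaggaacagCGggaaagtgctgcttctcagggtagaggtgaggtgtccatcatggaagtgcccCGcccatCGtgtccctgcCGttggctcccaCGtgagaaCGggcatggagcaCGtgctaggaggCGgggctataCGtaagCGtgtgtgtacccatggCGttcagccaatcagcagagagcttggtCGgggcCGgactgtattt
Tdrd12 (chr7:35537666-35537965, - strand): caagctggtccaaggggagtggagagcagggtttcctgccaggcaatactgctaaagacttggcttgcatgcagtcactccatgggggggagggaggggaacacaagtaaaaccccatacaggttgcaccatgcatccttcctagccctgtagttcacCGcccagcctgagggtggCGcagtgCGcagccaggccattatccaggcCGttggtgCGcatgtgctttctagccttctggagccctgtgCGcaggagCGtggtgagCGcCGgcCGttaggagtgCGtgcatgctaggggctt
The Ddx4 window holds 38 CG, and 4.95% of all 32851 windows hold as many. Mael holds 24 (20%), Sycp3 15 (34.6%) and Tdrd12 11 (41.4%), the last of these from 1 of its 2 windows. The E-box CACGTG, searched on both strands, is in the Ddx4, Mael and Sycp3 windows, and the E2F6-type motif GCGGGAA in those of Ddx4 and Sycp3. These letters are in 7.15% and 4.6% of all windows. Of the 18 germline genes, 17 have a window, with a median of 20 CG, against 7 over all windows, and 11 hold CACGTG and 5 GCGGGAA. For comparison, 18 pluripotency factors have a median of 15.5 CG, 2 with CACGTG and 0 with GCGGGAA. A match of letters is a description and no evidence of binding.

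The genes with the largest deficits over the whole array were of mixed kinds. Ina (alpha-internexin), a neuronal intermediate filament protein, had 128 (high-KLF4) and 103.5 (low-KLF4) on day 18, against 1971 and 1621 in the high-KLF4 clones and 1985 and 1831 in the low-KLF4 clones (log2 difference -4.00 ± 0.13, adjusted p = 2.2e-05). Nup62cl, related to nucleoporin 62, had 244 (high-KLF4) and 317 (low-KLF4) on day 18, against 3975 and 3462 in the high-KLF4 clones and 3866 and 3999.9 in the low-KLF4 clones (log2 difference -3.78 ± 0.10, adjusted p = 1.29e-05). All 3 Vwa3b probes were among the 10 lowest, with differences of -3.53, -3.47 and -3.12. Neurod1, a neurogenic helix-loop-helix factor, had 38.1 (high-KLF4) and 40.3 (low-KLF4) on day 18, against 345 and 337 in the high-KLF4 clones and 297 and 497 in the low-KLF4 clones (log2 difference -3.21 ± 0.19, adjusted p = 0.00012), although 1 low-KLF4 day 8 array read 307 and the other 80.0. Zfp980 and Zfp979, which belong to a zinc finger family with near-identical copies whose signals cannot be assigned with certainty, had differences of -3.37 and -3.09. Bin2, a membrane-curvature protein, had 71.8 (high-KLF4) and 87.4 (low-KLF4) on day 18, against 996 and 507 in the high-KLF4 clones and 365 and 1180.0 in the low-KLF4 clones, a spread of more than 3-fold between clones (log2 difference -3.11 ± 0.48, adjusted p = 0.00296). Tdrd12 was the remaining gene of the 10. Except for Bin2, the 4 clones were within 2-fold of each other for each of these 10 probes.

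The largest excess on day 18 was in Cer1 and Tpbpa, whose signals were low on every other array. Cer1 (Cerberus-like), a secreted NODAL, BMP and WNT inhibitor of the anterior visceral endoderm, had 3141 (high-KLF4) and 4349 (low-KLF4) on day 18, against 50.6 and 49.8 in the high-KLF4 clones and 47.4 and 48.0 in the low-KLF4 clones (log2 difference 6.24 ± 0.13, adjusted p = 8.05e-06), a 75.5-fold difference. The other 12 arrays read between 46.9 and 63.9. Tpbpa, a secreted protein of spongiotrophoblast cells in the placenta, had 951 (high-KLF4) and 1192 (low-KLF4) on day 18, against 27.2 and 28.2 in the high-KLF4 clones and 27.8 and 27.5 in the low-KLF4 clones (log2 difference 5.27 ± 0.09, adjusted p = 8.05e-06), 38.5-fold, and no other array was above 31.4. Both genes were high on both day 18 arrays. Cyp2f2, a cytochrome P450 of the airway, had 2612 (high-KLF4) and 3158 (low-KLF4) on day 18, against 93.3 and 92.9 in the high-KLF4 clones and 103 and 95.0 in the low-KLF4 clones (log2 difference 4.90 ± 0.08, adjusted p = 8.05e-06). Cyp26a1, the retinoic acid hydroxylase, had 1575 (high-KLF4) and 798 (low-KLF4) on day 18, against 58.5 and 58.3 in the high-KLF4 clones and 66.3 and 55.0 in the low-KLF4 clones (log2 difference 4.24 ± 0.22, adjusted p = 8.98e-05). Spink1, a serine protease inhibitor, had 903 and 609 on day 18, against 38.1 to 45.0 in the clones (log2 difference 4.19 ± 0.15, adjusted p = 3.05e-05). Agtr2, the type 2 angiotensin receptor, had 1246 and 1029 on day 18, against 64.9 to 87.6 in the clones (log2 difference 3.95 ± 0.14, adjusted p = 2.87e-05), although its day 8 arrays differed from each other, with 987 and 132 in high-KLF4 and 1292 and 128 for low-KLF4, so that 1 low-KLF4 array was above day 18. Ly6g6c, a surface protein of the Ly6 family, had 5942 (high-KLF4) and 1993 (low-KLF4) on day 18, against 168 and 238 in the high-KLF4 clones and 175 and 214 in the low-KLF4 clones (log2 difference 4.13 ± 0.34, adjusted p = 0.000281). Keratinocytes read 4646 and 4972. Prl2c5, a placental prolactin, had 482 and 619 on day 18, against 29.1 to 35.0 in the clones (log2 difference 4.10 ± 0.12, adjusted p = 1.61e-05), but it shares sequence with other members of its family and its probe also read 798 and 748 in keratinocytes, so the gene behind the signal is uncertain. Lum and Pdgfra, the other genes of the 10 largest, belong to the mesenchymal list.

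Windows for Cer1 and Tpbpa, the 2 genes with the largest excess, are shown beside those of the germline genes in the same format.
Cer1 (chr4:82885102-82885401, - strand): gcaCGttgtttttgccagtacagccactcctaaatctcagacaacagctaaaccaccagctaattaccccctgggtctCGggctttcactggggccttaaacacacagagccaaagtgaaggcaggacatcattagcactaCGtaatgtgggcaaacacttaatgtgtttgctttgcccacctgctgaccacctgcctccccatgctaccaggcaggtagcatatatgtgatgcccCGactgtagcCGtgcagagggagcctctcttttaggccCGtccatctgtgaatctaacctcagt
Tpbpa (chr13:60941887-60942186, - strand): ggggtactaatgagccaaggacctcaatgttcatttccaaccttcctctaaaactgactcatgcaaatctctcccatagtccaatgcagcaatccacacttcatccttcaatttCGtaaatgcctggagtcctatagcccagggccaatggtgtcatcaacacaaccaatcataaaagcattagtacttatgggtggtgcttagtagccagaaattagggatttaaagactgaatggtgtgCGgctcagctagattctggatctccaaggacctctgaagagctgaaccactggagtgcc
They hold 6 and 2 CG (56.4% and 85.9% of all windows hold as many) and neither CACGTG nor GCGGGAA, which says only that these letters are not in these windows.

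Endoderm and trophoblast genes were higher as groups. Of 15 endoderm genes, 11 were called higher and 1 lower, where 20.1% and 21.8% of all tested probes were. In both cassettes 6 were 2-fold or more above the clones, where 2.43% of all tested probes were. Pdgfra, 1 of the 6, is also in the mesenchymal list. Foxa2, a forkhead factor of definitive endoderm, had 506 (high-KLF4) and 380.4 (low-KLF4) on day 18, against 114 and 86.9 in the high-KLF4 clones and 135 and 104 in the low-KLF4 clones (log2 difference 2.02 ± 0.20, adjusted p = 0.000482). Gata6, a factor of primitive endoderm, had 963 and 989.9 on day 18, against 278 to 339 in the clones (log2 difference 1.72 ± 0.09, adjusted p = 9.12e-05), its partner Gata4 1092 and 691 on day 18, against 254 to 297 in the clones (log2 difference 1.66 ± 0.16, adjusted p = 0.000457). Sox17, of both endoderm lineages, had 229 and 200.5 on day 18, against 58.7 to 62.8 in the clones (log2 difference 1.82 ± 0.08, adjusted p = 5.22e-05). Foxa1, the close relative of Foxa2, had 404 and 456 on day 18, against 114 to 129 in the clones (log2 difference 1.84 ± 0.07, adjusted p = 3.51e-05). Afp and Ttr, markers of mature visceral endoderm, had low signals. Afp was at 55.4 and 65.3 on day 18, against 52.3 to 61.3 in the clones (adjusted p = 0.587). Ttr was at 48.7 and 53.3 on day 18, against 41.0 to 43.3 in the clones (0.27, with a call that was lost without any 1 of 4 arrays). Hnf4a (0.94, adjusted p = 0.000336) and Cubn (0.35, adjusted p = 0.0266) of the same list were called higher. The summed signal of the list was 7492 and 7707 on day 18, against 3026 to 3378 in the clones. Pdgfra gave 1778 and 1927 of the day 18 sums.

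Of 12 trophoblast genes, 9 were called higher and 2 lower, where 20.1% and 21.8% of all tested probes were. They include Krt7, also in the keratin list, and Elf5, also a transient MET gene. Eomes, a T-box factor of trophoblast and of the primitive streak, had 1365 (high-KLF4) and 1019.8 (low-KLF4) on day 18, against 242 and 306 in the high-KLF4 clones and 265 and 223 in the low-KLF4 clones (log2 difference 2.20 ± 0.13, adjusted p = 0.000118). Plet1, a surface protein of trophoblast progenitors, had 3774 and 3269.6 on day 18, against 1026.5 to 1234.5 in the clones (log2 difference 1.65 ± 0.11, adjusted p = 0.000153) but was higher still in keratinocytes (13209 and 12575). The stem cell factors Cdx2 and Tfap2c differed little, with differences of 0.76 and -0.81, both called. Other placental genes, chosen after their values were seen, were Plac1 with 590.2 and 784 on day 18, against 59.5 to 74.2 in the clones (log2 difference 3.35 ± 0.08, adjusted p = 8.4e-06), the prolactin-family gene Prl2a1 with 548 and 526 on day 18, against 45.3 to 54.6 in the clones (log2 difference 3.40 ± 0.10, adjusted p = 1.65e-05) and the X-linked homeobox genes Rhox6 (1.85) and Rhox9 (2.17), the last 2 close relatives whose probes may share signal. The summed signal of the trophoblast list, Krt7 and Elf5 included, was 10837 and 9310.0 on day 18, against 3764 to 4149 in the clones.

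Genes of the epiblast and anterior streak, again chosen after their values were seen, stood beside Otx2 and Cer1. Lhx1, a LIM homeodomain factor needed for head formation, had 964 (high-KLF4) and 664 (low-KLF4) on day 18, against 82.1 and 94.3 in the high-KLF4 clones and 97.6 and 87.3 in the low-KLF4 clones (log2 difference 3.15 ± 0.15, adjusted p = 6.57e-05). Dkk1, a secreted WNT inhibitor, had 848 and 784 on day 18, against 109 to 120.0 in the clones (log2 difference 2.83 ± 0.08, adjusted p = 1.56e-05). Gsc (goosecoid), a homeobox gene of the organiser, had 462 and 389 on day 18, against 163 to 179 in the clones (log2 difference 1.33 ± 0.08, adjusted p = 0.000135). Fgf5, the marker of the post-implantation epiblast, had 1468 (high-KLF4) and 874 (low-KLF4) on day 18, against 209 and 154 in the high-KLF4 clones and 369 and 198 in the low-KLF4 clones (log2 difference 2.36 ± 0.36, adjusted p = 0.00285). Fgf8 had 776 and 1148 on day 18, against 233.5 to 296.5 in the clones (log2 difference 1.81 ± 0.15, adjusted p = 0.000295). On day 8 none of these 5 genes was above 261, the Fgf8 signal of 1 high-KLF4 array, which lay within the range of the clones. Bmp2, a ligand of visceral endoderm, had 485 and 552 on day 18, against 60.2 to 73.6 in the clones (log2 difference 2.96 ± 0.10, adjusted p = 2.87e-05), and Amot, a junction protein that holds YAP outside the nucleus, 2593.5 and 2100.3 on day 18, against 155 to 193 in the clones (log2 difference 3.73 ± 0.13, adjusted p = 2.87e-05).

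**Figure D3:**
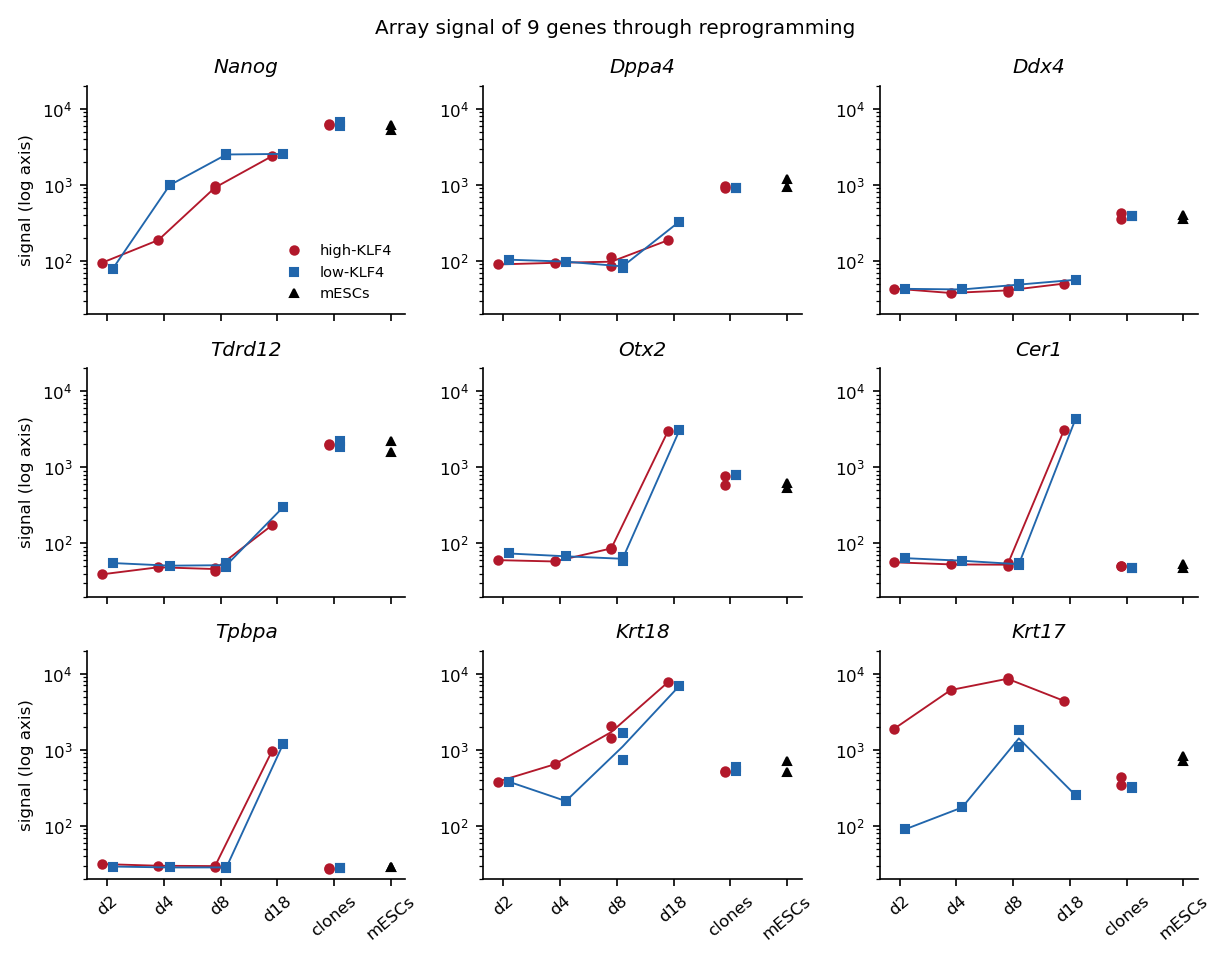
Signal (log axis) of 9 genes on days 2, 4, 8 and 18 and in iPSC clones and mESCs, with each array as a point and high-KLF4 and low-KLF4 in separate colours. Nanog and Dppa4 are below clone level on day 18, Ddx4 is at its day 2 level, Cer1 and Tpbpa appear on day 18 alone, and Krt17 is above clone level on day 18 in high-KLF4 cells only.

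The miR-302 cluster lies in an intron of Larp7 and is a source of AAGUGCU-seed miRNAs in pluripotent cells, where these promote cell cycle progression. The array reads its hairpins rather than mature miRNAs, at low signals, and these genes too were chosen after their values were seen. Mir302d had 78.7 (high-KLF4) and 85.1 (low-KLF4) on day 18, against 33.2 and 28.9 in the high-KLF4 clones and 44.3 and 47.6 in the low-KLF4 clones (log2 difference 1.12 ± 0.12, adjusted p = 0.000757), Mir302a 58.4 and 77.4 on day 18, against 29.2 to 37.7 in the clones (log2 difference 1.04 ± 0.08, adjusted p = 0.000242). Mir302c had 73.8 and 65.9 on day 18, against 31.8 to 53.2 in the clones (log2 difference 0.79 ± 0.17, adjusted p = 0.0106). Mir302b was split and not called, with 99.4 and 72.6 on day 18, against 30.9 to 62.6 in the clones (adjusted p = 0.0579), and Mir367 stayed at 26.6 and 27.1 on day 18, against 23.5 to 24.9 in the clones (adjusted p = 0.0995). The mESC arrays read 29.7 and 29.4 for Mir302d, within the range of the clones. The mature 3p sequences in the RefSeq table, with the seed (bases 2 to 8) in capitals, show that 302b and 302d share a seed.
mmu-miR-302b-3p (chr3:127545275-127545297, + strand, GRCm38.p6): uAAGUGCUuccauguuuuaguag
mmu-miR-302c-3p (chr3:127545406-127545427, + strand, GRCm38.p6): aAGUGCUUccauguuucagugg
mmu-miR-302d-3p (chr3:127545665-127545687, + strand, GRCm38.p6): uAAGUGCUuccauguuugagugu

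Imprinted genes tended to be higher on day 18. Of 17 measured genes, 11 were called higher and 2 lower, with a median of 0.65. Over all tested probes 20.1% were called higher and 21.8% lower. Dlk1, the paternally expressed NOTCH-like ligand of the Dlk1-Meg3 domain, had 5414.5 (high-KLF4) and 7221.5 (low-KLF4) on day 18, against 500.3 and 442 in the high-KLF4 clones and 541 and 436 in the low-KLF4 clones (log2 difference 3.71 ± 0.13, adjusted p = 2.87e-05). Meg3, the maternally expressed non-coding RNA of the same domain, had 3215 (high-KLF4) and 4079 (low-KLF4) on day 18, against 1192 and 689 in the high-KLF4 clones and 1025 and 709.8 in the low-KLF4 clones (log2 difference 2.04 ± 0.25, adjusted p = 0.0012). Rian, another RNA of it, had 100.5 and 78.8 on day 18, against 44.2 to 73.7 in the clones (log2 difference 0.65 ± 0.18, adjusted p = 0.0293), a call that was lost without either day 18 array or A9 (adjusted p up to 0.114). Zim1, a zinc finger gene beside Peg3, had 619 and 852 on day 18, against 153 to 165 in the clones (log2 difference 2.18 ± 0.12, adjusted p = 9.67e-05). Igf2, the fetal growth factor, had 9174 and 9988 on day 18, against 3467 to 4066 in the clones (log2 difference 1.34 ± 0.10, adjusted p = 0.000196). Phlda2, a restrainer of placental growth, and Ndn were the 2 genes called lower (-0.85 and -0.55). The array does not separate the parental alleles, so no statement about imprinting itself can be made.

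Mesenchymal genes stood above clone level on day 18 in both cassettes. Of 30 genes, 23 were called higher and none lower, where 20.1% and 21.8% of all tested probes were. In both cassettes 12 lay 2-fold or more above the clones, where 2.43% of all tested probes did. Lum (lumican), a proteoglycan of connective tissue, had 2316.5 (high-KLF4) and 1333 (low-KLF4) on day 18, against 52.9 and 56.6 in the high-KLF4 clones and 53.2 and 53.0 in the low-KLF4 clones (log2 difference 5.03 ± 0.16, adjusted p = 2.48e-05), while its 2 day 8 arrays differed from each other (988 and 201.5 in high-KLF4, 776 and 105 in low-KLF4). Pdgfra, the PDGF receptor of fibroblasts and of primitive endoderm, had 1778 (high-KLF4) and 1927 (low-KLF4) on day 18, against 100.2 and 113 in the high-KLF4 clones and 101 and 106 in the low-KLF4 clones (log2 difference 4.14 ± 0.09, adjusted p = 8.05e-06). Dcn (decorin) had 4514 and 3245 on day 18, against 256 to 322 in the clones (log2 difference 3.68 ± 0.16, adjusted p = 4.88e-05). Col6a1, Col6a2 and Col6a3, which form collagen VI, had differences of 2.75, 2.51 and 3.21, and Col1a1 and Col1a2, of collagen I, 1.92 and 1.67, all called. Other defining genes were at clone level, none called. Vim (vimentin) had 9342 and 9916 on day 18, against 8726 to 10255 in the clones. Fn1 had 9720.2 and 10296 on day 18, against 8499.9 to 9294 in the clones. Prrx1 had 1684 and 2085 on day 18, against 1241 to 1815 in the clones. The clones were themselves above keratinocytes, which read 2686 and 1713 for Vim, 4302 and 3990 for Fn1, and 95.0 and 70.1 for Prrx1. The mESC arrays read 8482 and 8774 for Vim, 6482 and 6510 for Fn1, and 973 and 859 for Prrx1.

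The summed signal of the mesenchymal list was 75782 and 79526 on day 18, against 39108 to 47582 in the clones and 31865 to 31866 in the mESCs. Smooth muscle contractile genes ran the opposite way, with sums of 12389 and 11019.9 on day 18, against 14806 to 22387 in the clones. Of its 10 genes, 5 were called lower and 2 higher, where 21.8% and 20.1% of all tested probes were, so the higher calls were near that share. Actg2 (enteric smooth muscle actin) had 175 (high-KLF4) and 189 (low-KLF4) on day 18, against 1034.5 and 742 in the high-KLF4 clones and 1384 and 779 in the low-KLF4 clones (log2 difference -2.39 ± 0.24, adjusted p = 0.00056). Cnn1 (calponin) had 381 and 389.6 on day 18, against 1351 to 2257 in the clones (log2 difference -2.19 ± 0.17, adjusted p = 0.00025). The part of other cell types in these values was not tested.

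Most general epithelial genes, of junctions, adhesion and simple keratins, were at or above clone level. 6 of them (Cldn4, Crb3, Krt8, Ocln, Rab25 and St14) also belong to the study's list of transient MET genes, described further on. Of 21 measured, 14 were called higher on day 18, 1 (Epcam, an adhesion protein of ES cells) lower and 6 were not called. Over all tested probes 20.1% were called higher and 21.8% lower. Krt8 and Krt18, the keratin pair of simple epithelia, rose furthest. Krt18 had 7739 (high-KLF4) and 6924 (low-KLF4) on day 18, against 508 and 527 in the high-KLF4 clones and 533 and 585 in the low-KLF4 clones (log2 difference 3.77 ± 0.09, adjusted p = 9.69e-06). Krt8 had 9641 (high-KLF4) and 7555 (low-KLF4) on day 18, against 659.5 and 619 in the high-KLF4 clones and 703 and 802 in the low-KLF4 clones (log2 difference 3.62 ± 0.14, adjusted p = 3.92e-05). Dsp (desmoplakin), which ties keratin filaments to desmosomes, had 2159.6 and 1213 on day 18, against 142 to 189 in the clones (log2 difference 3.33 ± 0.25, adjusted p = 0.000204). The tight junction genes Cldn3, Cldn6 and Cldn7 were called higher (1.39, 0.81 and 1.35), while Esrp1 (a splicing factor of epithelia), Grhl2 (a grainyhead factor) and Ocln (occludin) were not called (adjusted p = 0.318, 0.142 and 0.0624). Every gene of the 11 that the clones held 2-fold above day 2 was also 2-fold above day 2 on day 18 in both cassettes.

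Several keratins of stratified epithelium were 2-fold or more above clone level in high-KLF4 cells and within 2-fold of it in low-KLF4 cells. Of 18 measured keratins, 12 were 2-fold or more above their clones in high-KLF4 and 5 in low-KLF4, where 4.43% and 3.06% of all tested probes were. The 5 that were high in both were those of simple epithelia, Krt7, Krt8, Krt18 and Krt19, together with Krt80. The 6 that were within 2-fold in both were Krt4, Krt10, Krt15, Krt20, Krt23 and Krt90, with high-KLF4 differences between -0.04 (Krt23) and 0.60 (Krt20). 8 of the keratins also belong to the study's list of transient MET genes. Krt19 had 2471 (high-KLF4) and 2326 (low-KLF4) on day 18, against 203 and 205 in the high-KLF4 clones and 229 and 225 in the low-KLF4 clones (log2 difference 3.48 ± 0.08, adjusted p = 8.4e-06). Krt7 had 1404 and 1070.1 on day 18, against 152 to 173 in the clones (log2 difference 2.91 ± 0.12, adjusted p = 4.2e-05). Krt17, a keratin of basal and injured epidermis, had 4378 (high-KLF4) and 251 (low-KLF4) on day 18, against 342 and 435 in the high-KLF4 clones and 320.3 and 314 in the low-KLF4 clones, with differences of 3.51 (high-KLF4) and -0.34 (low-KLF4). Krt6a, of hyperproliferative epidermis, had 566 (high-KLF4) and 70.7 (low-KLF4) on day 18, against 44.6 and 48.3 in the high-KLF4 clones and 43.9 and 43.2 in the low-KLF4 clones (3.61 and 0.70). Krt14 and Krt5, the pair of basal keratinocytes, had 646 and 151 on day 18, against 101 to 115 in the clones and 462 and 117 on day 18, against 93.3 to 107 in the clones, differences of 2.60 and 2.20 for high-KLF4 and of 0.47 and 0.26 for low-KLF4. Over both cassettes Krt5, Krt6a and Krt14 were called higher, but not without either high-KLF4 clone, and Krt5 not without A9 or the high-KLF4 day 18 array (adjusted p up to 0.118, 0.0583 and 0.0669). These levels were a small part of those in keratinocytes, where Krt5 read 12142 and 11903 and Krt14 10143.5 and 9677.

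Genes of the cornified envelope and the kallikreins gave similar values. Of 28 genes, 14 were 2-fold or more above their clones in high-KLF4 and 2 in low-KLF4, where 4.43% and 3.06% of all tested probes were. Over both cassettes 14 were called higher, where 20.1% of all tested probes were, and 11 also belong to the transient MET list. Of these genes and the keratins, Krt17 and Klk10 were called in the test between cassettes given further on, and the others were not. Krtdap, a keratinocyte differentiation protein, had 1528 (high-KLF4) and 238 (low-KLF4) on day 18, against 63.4 and 55.5 in the high-KLF4 clones and 61.7 and 67.2 in the low-KLF4 clones (4.69 and 1.89), and with Sbsn (suprabasin, 1.84 and 1.22) was 2-fold higher in both cassettes. Klk14 and Klk10, serine proteases of skin shedding, had 1097 and 131 on day 18, against 91.7 to 99.7 in the clones and 2477 and 216 on day 18, against 229.5 to 269.7 in the clones, with differences of 3.55 and 3.32 for high-KLF4 and of 0.45 and -0.22 for low-KLF4. The 14 genes within 2-fold of the clones in both included Lor (loricrin), with 114 and 81.9 on day 18, against 72.8 to 84.1 in the clones. Ivl (involucrin) was another, with 56.1 and 63.8 on day 18, against 57.1 to 65.3 in the clones, and neither was called. In keratinocytes Lor read only 342 and 376 and Ivl 204 and 221. Sprr1a and Crct1 of the same list were far above the clones in high-KLF4 (3.59 and 3.25) and within 2-fold in low-KLF4 (0.35 and 0.46).

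The transcription factors of the transient phase fell between these patterns. Of 7 measured, 5 were called higher on day 18 (Elf5, Ehf, Ovol1, Tead4 and Mxd1) and none lower, and none was 2-fold higher in both cassettes. Over all tested probes 20.1% were called higher and 21.8% lower. Elf5, an ETS factor of trophoblast and glandular epithelium, had 617 (high-KLF4) and 108 (low-KLF4) on day 18, against 61.1 and 62.3 in the high-KLF4 clones and 67.0 and 72.2 in the low-KLF4 clones (3.32 in high-KLF4 and 0.63 in low-KLF4). Ehf, an epithelial ETS factor, had 517 (high-KLF4) and 143 (low-KLF4) on day 18, against 89.6 and 72.2 in the high-KLF4 clones and 65.3 and 82.4 in the low-KLF4 clones (2.68 and 0.96). Ovol1, a zinc finger factor of epidermal differentiation, had 341 (high-KLF4) and 119 (low-KLF4) on day 18, against 85.7 and 102 in the high-KLF4 clones and 98.8 and 79.5 in the low-KLF4 clones (1.86 and 0.42), where its day 8 arrays read 445 and 974 in high-KLF4, with low-KLF4 at 147 and 174. Nfe2l3 and Ifi209 were not called. The calls of Elf5, Ovol1 and Mxd1 were lost without either high-KLF4 clone, and those of Ovol1 and Mxd1 also without the high-KLF4 day 18 array, that of Ovol1 without A9 too (adjusted p up to 0.0603, 0.0871 and 0.0915 over all arrays left out).

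The study's list of transient MET genes, 200 probes, showed how much of this phase remained. The study started the list from genes more than 2-fold higher in high-KLF4 than in low-KLF4 on day 8. It then narrowed them with keratinocyte and mESC arrays of this series. The list is therefore not independent evidence of a direction or of a gap between the cassettes. Of 196 tested probes, 127 were called higher on day 18 than in the clones and 4 lower, where 20.1% and 21.8% of all tested probes were. Over all tested probes, 4.43% (high-KLF4) and 3.06% (low-KLF4) were 2-fold or more above the clones on day 18. Among the 200 probes of the list, the counts were 109 in high-KLF4 cells (median difference 1.08) and 26 in low-KLF4 cells (median 0.32). On day 8 the same counts were 179 (median 1.88) and 28 (median 0.26). Of the 179 probes that were 2-fold high on day 8 in high-KLF4, 108 were still 2-fold high on day 18, and 8 of 28 in low-KLF4. The array medians in high-KLF4 were 0.98 on day 2, 1.41 on day 4, 1.49 and 2.46 in the pair of day 8 arrays, and 1.08 on day 18, so day 18 lay below both day 8 arrays and close to day 2. In low-KLF4 they lay between 0.05 and 0.32 on all days, and in keratinocytes they were 2.87 and 2.77.

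**Figure D4:**
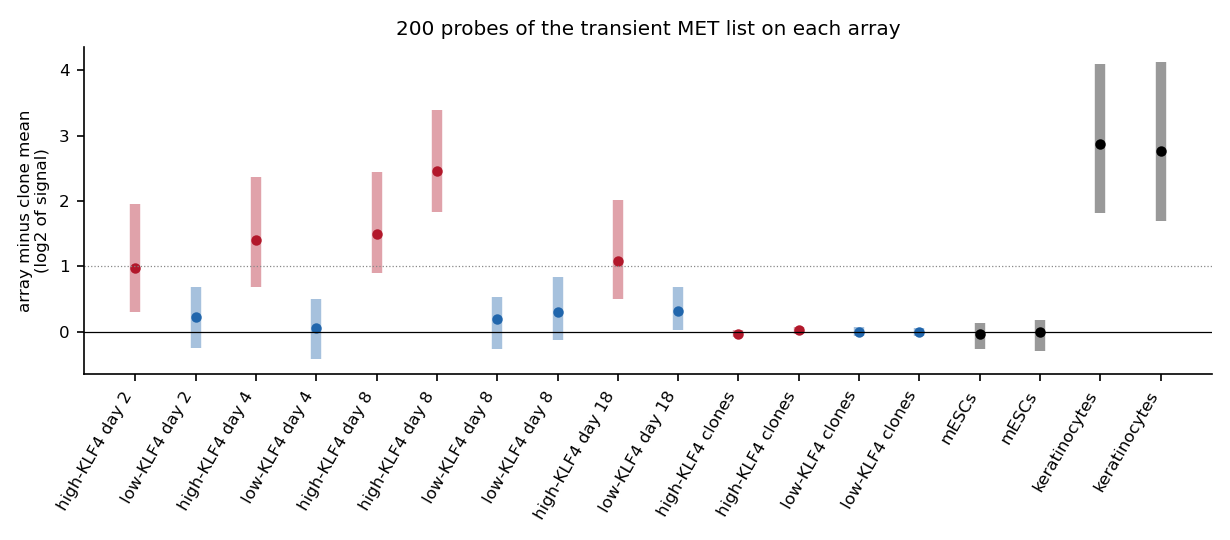
Log2 signal of the 200 transient MET probes minus the clone mean of the same cassette (vertical axis), by group, as the median over probes (point) and the quartiles (line) of each array, with high-KLF4 and low-KLF4 in separate colours. The high-KLF4 median is 1.08 on day 18 and the low-KLF4 median 0.32, against 2.87 and 2.77 in keratinocytes.

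25 transient MET probes were 2-fold or more above the clones in both cassettes on day 18, where 2.43% of all tested probes were. They included Krt8 and Krt80, the desmosomal cadherin Dsc2 (2.49), the integrin subunit Itgb4 (2.00), the sodium channel subunit Scnn1a (1.76), Scel (sciellin, 2.58), Psca (prostate stem cell antigen, 2.33), the natriuretic peptide gene Nppb (3.03) and Ndrg1 (2.01), all called. 84 probes were 2-fold high in high-KLF4 alone and 1 in low-KLF4 alone. The higher difference was in high-KLF4 for 91.0% of the list, against 45.2% of all tested probes. The list was chosen for higher day 8 signals in high-KLF4, so this gap is no separate finding. In the plot of the cassettes against each other, cornified envelope genes and keratins spread upwards from the diagonal.

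**Figure D5:**
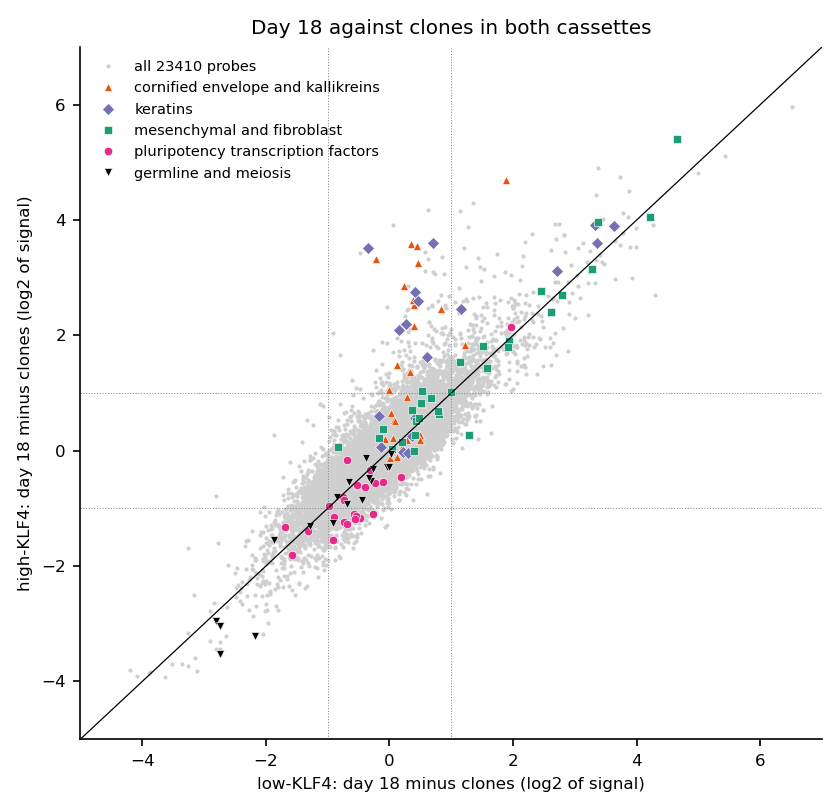
Day 18 minus clones (log2) in high-KLF4 (vertical axis) against low-KLF4 (horizontal axis) for 23410 probes, with 5 gene lists in colour and the diagonal of equal difference. Krt17 lies at 3.51 in high-KLF4 and -0.34 in low-KLF4, far above the diagonal, and Ddx4 at -2.95 and -2.80, close to it.

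Whether a day 18 difference depended on the cassette was tested as an interaction, in which each lone day 18 array is assumed to vary like the other groups. It was called for 4 probes (0.0171%) with the larger difference in high-KLF4 and 1 (0.00427%) with the larger difference in low-KLF4, and 1828 probes had an unadjusted p below 0.05. Krt17 differed by 3.84 ± 0.39, adjusted p = 0.0346, Klk10 by 3.54 ± 0.31, adjusted p = 0.0173 and Msln (mesothelin, a surface protein of mesothelium) by 2.94 ± 0.24, adjusted p = 0.0173. Msln had 2150.4 (high-KLF4) and 314 (low-KLF4) on day 18, against 114 and 106 in the high-KLF4 clones and 117 and 130.3 in the low-KLF4 clones. Gkn2 (gastrokine 2) differed by 1.76 ± 0.18, adjusted p = 0.0346. Cdh5 (VE-cadherin), an adhesion protein of endothelial cells, was the gene called below 0 (-1.60 ± 0.14, adjusted p = 0.0173), with 551 (high-KLF4) and 1409.7 (low-KLF4) on day 18, against 85.0 and 84.8 in the high-KLF4 clones and 73.6 and 70.0 in the low-KLF4 clones. Without any 1 of the 4 clone arrays, none of the 5 calls was made.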

How the data were processed

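RNA of the 6 arrays compared here, 2 of day 18 mCherry+ cells and 4 of iPSC clones, was hybridised to Affymetrix GeneChip Mouse Gene 1.0 ST arrays, and the other 12 of 18 arrays (days 2, 4 and 8, mESCs and keratinocytes) were used for levels and for the spread. The deposited values are signal intensities on a linear scale that the authors had made with RMA in GeneSpring, a method that removes background, forces one distribution on all arrays by quantile normalization and gives 1 value per transcript cluster. As a result, a change in total RNA per cell is not visible. Array medians lay between 139.4 and 161.6. The number of arrays limits the precision, and no depth applies.

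Tests used log2 values. Of 28853 probes, 23410 that carry a gene symbol entered the tests. Of these, 21789 carry 1 symbol and 1621 more than 1, which are never named, while 5443 had none in the platform annotation. The main fit was limma 3.58.1 (R 4.3.3) on the 6 arrays with stage and cassette as terms (3 residual and 3.38 prior degrees of freedom) and Benjamini-Hochberg adjustment over all tested probes at 0.05. Each cassette's difference and the interaction came from a limma fit of 18 arrays in 12 groups (6 residual and 2.25 prior degrees of freedom). The main fit was tested on simulated data with far fewer changed probes than were called here, and the fit of 12 groups was not tested in this way. There were 26 gene lists with 428 entries, of which 397 matched a probe with 1 symbol. For 11 entries with several probes, the probe with the highest mean was used. The members, the lists and the tests were chosen with earlier results of these data known. Genes were named by rule (the 10 largest differences each way without overlap between groups, members of the pluripotency and transient factor lists, the 2 largest changes each way in the other lists, and the interaction calls), and any others were chosen after their values were seen. The fold changes and p-values that the study gives for its own comparisons were not used, and of its list of transient MET genes only the membership was read. Promoter and miRNA sequences are from RefSeq tables on GRCm38.p6, matched by symbol or miRNA name. Counts and figures were made with Python 3.11.15, pandas 2.3.3, numpy 2.4.6 and matplotlib 3.10.9. Alternatives were another set of samples in the fit, no block, a filter on dim probes, a second quantile normalization, limma-trend, mESCs in place of the clones, the methods' t-test and leaving out each array.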

Additional observations from a re-analysis of the deposited data

Results flagged for a closer look

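The test of the difference between cassettes, day 18 minus clones in high-KLF4 less the same in low-KLF4, picked out 5 probes. Krt17 had 3.84 (adjusted p = 0.0346) on the log2 scale, with day 18 differences of 3.51 (high-KLF4) and -0.34 (low-KLF4). Its day 8 signals were 8803 and 8363 in high-KLF4, with low-KLF4 at 1833 and 1084, so both cassettes were lower on day 18 than on day 8. Klk10 had 3.54 (adjusted p = 0.0173), with 3.32 and -0.22, and was high in high-KLF4 cells from day 2 onwards (2497, against 649.6 in low-KLF4). Msln had 2.94 (adjusted p = 0.0173), with 4.29 and 1.35, and was also high in high-KLF4 cells on day 2 (3249, against 1277 in low-KLF4). Gkn2, chosen after its values were seen, had 1.76 (adjusted p = 0.0346), with 2.07 and 0.30, from signals of 242 (high-KLF4) and 68.0 (low-KLF4) on day 18, against 58.7 and 57.0 in the high-KLF4 clones and 55.8 and 54.6 in the low-KLF4 clones, and no earlier day was above 73.3. Cdh5 had -1.60 (adjusted p = 0.0173), with 2.70 and 4.30, so it was higher than the clones in both cassettes and more so in low-KLF4. Each of these differences rests on 1 day 18 array per cassette, and none was called with any 1 clone array left out.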

How the results depend on the processing

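The main counts of 4711 probes higher and 5092 lower became 3103 and 3997 in the fit of 18 arrays and 2851 and 3446 with the 2 mESC arrays in place of the clones. Leaving out the block, leaving out the dimmest 30% of probes, quantile normalization run again, limma-trend, testing every probe and the methods' t-test (unadjusted and Benjamini-Hochberg adjusted) gave 3689 to 5432 higher and 4264 to 5576 lower. With each array left out in turn the counts were 3587 to 5158 higher and 4322 to 5222 lower. By cassette, leaving the 4 day 8 arrays out of the fit gave 3146 higher and 3643 lower for high-KLF4 and 4249 and 4506 for low-KLF4, and leaving out a clone gave ranges of 577 to 629 and 819 to 1102 for high-KLF4 and of 541 to 945 and 1355 to 1731 for low-KLF4, lowest without H10 and without A9. The test between cassettes called 4 probes above 0 and 1 below, 124 and 14 without the day 8 arrays, 16 and 2 with limma-trend, 7 and 1 without the dimmest probes, and 0 and 0 with A10, H10, A7 or A9 left out in turn. The settings below were added after seeing the data. With mESCs in place of the clones, 953 probes were 2-fold or more higher in both cassettes and 868 lower, and 71 transient MET probes were called higher. Without the high-KLF4 day 18 array 88 transient MET probes were called, and without the low-KLF4 one 157. No paired analysis was possible because day 18 has 1 array per cassette and the replicate numbers of the clones only name clones.

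Of 203 named genes, 161 were called, and 123 of these stayed called in every alternative that kept the 6 arrays. The sign turned with mESCs in place of the clones for Dppa3 (0.07), Hoxc8 (0.09) and Ptprc (-0.88), and under no other alternative for the named genes. The calls of 16 genes were lost with at least 1 single array left out. Besides those given with their results, these were Klk14 (log2 difference 1.77 to 2.20, without A10, H10 or A9), Gkn2 (1.05 to 1.30, the same clones), Krt15 (0.26 to 0.29, without the low-KLF4 day 18 array, H10 or A9) and Peg3 (0.31, without the low-KLF4 day 18 array). For Ovol1, Krt5 and Mxd1 the difference without the high-KLF4 day 18 array was no longer called, at 0.42, 0.26 and 0.21. With a single array left in a group, that array was assumed to vary like the others. Low signals have no background value, so differences between the dimmest probes may be understated.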

Other observations

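Counts of called genes are given here where 20.1% and 21.8% of all tested probes were called higher and lower. Most interferon response genes were higher on day 18. Of 16 measured genes, 11 were called higher than in the clones and none lower, and 5 (Usp18, Ifit3, Irf7, Ifit1 and Psmb8) were 2-fold or more higher in both. Usp18, which removes the ISG15 modifier and restrains the interferon receptor, had 822 (high-KLF4) and 814 (low-KLF4) on day 18, against 153 and 175 in the high-KLF4 clones and 134 and 165 in the low-KLF4 clones (log2 difference 2.39 ± 0.11, adjusted p = 6.57e-05). Ifit3, an antiviral RNA-binding family member, had 374 and 402 on day 18, against 94.9 to 118 in the clones (log2 difference 1.93 ± 0.11, adjusted p = 9.95e-05), while Mx1, Oas1a and Stat2 were not called (adjusted p = 0.368, 0.207 and 0.229). Cell cycle genes were lower, with 17 of 21 called and none higher, mostly by less than 2-fold. Ccne1 (cyclin E1), which drives entry into S phase, had 1439 (high-KLF4) and 1760.1 (low-KLF4) on day 18, against 4276 and 4116 in the high-KLF4 clones and 4529.6 and 4110.2 in the low-KLF4 clones (log2 difference -1.42 ± 0.09, adjusted p = 0.000136), and Bub1, a kinase of the spindle checkpoint, had 1566 and 1529.9 on day 18, against 2979 to 3325 in the clones (log2 difference -1.03 ± 0.08, adjusted p = 0.000262). The D cyclins Ccnd1 and Ccnd2 were not called (adjusted p = 0.557 and 0.755). Among 12 growth arrest genes, 5 were called higher and 4 lower, a split both ways with a median near 0 (-0.07) that does not set the list apart. Cdkn2c (p18), an inhibitor of CDK4 and CDK6, had 334 and 252 on day 18, against 90.9 to 111 in the clones (log2 difference 1.55 ± 0.13, adjusted p = 0.000313) and Btg2, an antiproliferative gene, 2901 and 2293 on day 18, against 950.4 to 1078 in the clones (log2 difference 1.37 ± 0.11, adjusted p = 0.00027), whereas the p53 targets Mdm2 and Ccng1 were lower (-0.73 and -0.68).

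Endothelial and blood markers gave mixed values. Of 9 endothelial genes, 3 were called higher and 2 lower. Flt1, a VEGF receptor that trophoblast also expresses, had 1407 and 1015 on day 18, against 220.1 to 332 in the clones (log2 difference 2.13 ± 0.20, adjusted p = 0.000394) and Tek, the angiopoietin receptor, 159.5 and 126 on day 18, against 309.7 to 428 in the clones (log2 difference -1.42 ± 0.16, adjusted p = 0.000845). The summed endothelial signal was 3216 and 3593 on day 18, against 1531 to 1762 in the clones. Of 11 immune cell genes, 3 were called higher and 2 lower, near the shares over all probes, with sums of 4653 and 3894 on day 18, against 4067 to 4243 in the clones. Differences within this list ran from -1.8 to 1.51. In both cassettes 2 of its genes lay 2-fold or more above the clones, where 2.43% of all tested probes did. Ptprc (CD45), which defines blood cells, read 58.1 and 54.2 on day 18, against 53.0 to 59.6 in the clones (adjusted p = 0.943). Neural genes summed to 2479 and 2145 on day 18, against 2379 to 2556 in the clones, with 2 of 11 called higher and 2 lower. Zic1, a zinc finger factor, rose furthest among them (1.49), and Pax3 was also called higher (0.31). Tubb3, 2-fold or more below the clones in both cassettes (-1.08), and Pax6 (-0.70) were the genes called lower. Mesoderm and muscle genes had 7 of 12 called higher and 1 lower, with Actc1 (cardiac actin) at 752 and 664 on day 18, against 239 to 383 in the clones (log2 difference 1.24 ± 0.16, adjusted p = 0.00146).

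All 24 measured Hox genes lay within 2-fold of the clones in both cassettes, with 8 called higher and 2 (Hoxc8 and Hoxd10) lower. Hemidesmosome and laminin genes had 6 of 10 called higher and 1 (Itga6) lower, and epidermal lipid barrier genes 4 of 15 higher and 3 lower, the last near the shares over all probes (20.1% and 21.8%). Alox12b, a lipoxygenase of the skin barrier, had 2125 (high-KLF4) and 152 (low-KLF4) on day 18, against 139 and 144 in the high-KLF4 clones and 145 and 147.5 in the low-KLF4 clones. It was not called over both cassettes (adjusted p = 0.0819) or in the test between cassettes (3.85 (adjusted p = 0.245)). Of the 4 measured genes of the early embryo list, Gm5662 had the largest difference, with 29.0 and 28.8 on day 18, against 90.5 to 171 in the clones (log2 difference -2.12 ± 0.26, adjusted p = 0.00105). These are values alone, and no cause was tested.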
